A study of Mus musculus with 6 samples.

Results

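The 10 genes described here encode the 5 subunits of the transcription factor NF-kB (Rela, Relb, Rel, Nfkb1 and Nfkb2) and 5 inhibitors and regulators that NF-kB itself induces (Nfkbia, Nfkbie, Nfkbiz, Bcl3 and Tnfaip3). They were chosen by name, and every array probe whose gene name matched one of them was taken, which gave 12 probes. All 12 passed the filter on dim probes, that of Rel through the lung arrays only. All 10 genes were among the 22097 genes tested. The cells were M-MDSCs, the monocytic kind of myeloid-derived suppressor cell, which restrains T cell responses. They were sorted by flow cytometry from the lungs or the bone marrow of C57BL/6 mice. The treatment was azacytidine, which inhibits DNA methyltransferases, together with entinostat, which inhibits class I histone deacetylases. Vehicle alone was given to the mock mice. Each of 6 two-colour arrays held 1 treated RNA in the dye Cy5 and 1 mock RNA of the same tissue in the dye Cy3, with 3 arrays for lung and 3 for bone marrow.

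The groups also differed in pooling: between 3 and 6 mice stood behind each treated RNA, and 1 or 2 mice behind each mock RNA. The labels give an age, 6 to 8 weeks, for the mock mice. Cy5 always held the treated RNA, so within a tissue an effect of dye and one of treatment cannot be told apart. Lung and bone marrow were on different slides, and the same holds for tissue and slide. The M-MDSC genes Itgam, Ly6c1, Csf1r and Ccr2 were well above background on every array in both channels. Between 55.1% and 69.5% of spots were well above background in the treated channel and between 49.9% and 62.8% in the mock channel, and no spot was saturated. The precision of every value is limited by the number of arrays.

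NF-kB is a family of dimers. In resting cells the dimers of RelA, c-Rel and p50 are held in the cytoplasm by IκB proteins, and signals from toll-like receptors, IL-1 receptors and TNF receptors lead the IκB kinase complex to mark these inhibitors for degradation, which frees the dimers to enter the nucleus. The dimers then switch on inflammatory genes and also the genes of their own inhibitors, which makes the pathway self-limiting. In another, slower branch the precursor encoded by Nfkb2 is cut to p52, which pairs with RelB. In myeloid cells both branches are known for driving cytokines, adhesion molecules and survival genes.

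Because several of these genes are known targets of NF-kB, their promoters were searched for the 10-base kappa-B consensus on both strands. RefSeq promoter windows, 250 bases before the start site on build GRCm38.p6, were matched by symbol for 7 of the 10 genes. A match was present in 5 of those 7 genes, against 8.2% of the 27025 genes with a window. A match describes the letters in the window and is not a measurement of binding, and no match says only that these letters are not in this window. The windows of 4 genes are shown in the 5′ to 3′ direction of the gene, with the matches in capitals. Rela and Nfkb2 stand for the subunits, and Nfkbia and Tnfaip3 for the inhibitors that NF-kB is best known to induce. For genes with several start sites the most upstream window is shown. The 2 other windows of Nfkb2 held GGAATGTCCC at position -236 and GGGACTTTCC at -225, and the other window of Tnfaip3, chr10:19011964-19012213, held no match. Matches also lay in the windows of Nfkbie (GGGGGATTCC, starting at -106) and Rel (GGGAAATCCC, at -92), and the window of Bcl3 held none.
Rela, chr19:5637291-5637540, + strand, no match: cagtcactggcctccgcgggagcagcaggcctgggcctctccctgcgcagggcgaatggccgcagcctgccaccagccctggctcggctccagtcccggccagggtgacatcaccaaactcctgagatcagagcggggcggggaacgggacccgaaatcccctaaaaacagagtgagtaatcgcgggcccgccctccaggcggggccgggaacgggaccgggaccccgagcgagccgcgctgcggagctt
Nfkb2, chr19:46304487-46304736, + strand, matches starting at -39, -38 and -11: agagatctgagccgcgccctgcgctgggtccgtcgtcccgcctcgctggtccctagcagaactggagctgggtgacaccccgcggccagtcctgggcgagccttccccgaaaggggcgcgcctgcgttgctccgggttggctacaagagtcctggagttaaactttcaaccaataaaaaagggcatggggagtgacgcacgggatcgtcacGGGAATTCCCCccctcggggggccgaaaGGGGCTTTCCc
Nfkbia, chr12:55492648-55492897, - strand, a match starting at -29: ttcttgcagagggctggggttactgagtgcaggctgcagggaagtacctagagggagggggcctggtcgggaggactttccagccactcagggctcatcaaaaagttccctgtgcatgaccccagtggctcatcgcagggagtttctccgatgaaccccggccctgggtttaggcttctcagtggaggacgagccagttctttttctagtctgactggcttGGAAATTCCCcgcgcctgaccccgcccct
Tnfaip3, chr10:19015411-19015660, - strand, matches starting at -125 and -12: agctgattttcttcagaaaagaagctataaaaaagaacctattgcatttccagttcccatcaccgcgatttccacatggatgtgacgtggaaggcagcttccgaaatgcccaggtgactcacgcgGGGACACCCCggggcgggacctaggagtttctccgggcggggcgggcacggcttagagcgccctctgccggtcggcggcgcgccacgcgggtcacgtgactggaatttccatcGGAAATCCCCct

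The probes that carry 2 of the results are the probe used for Nfkb1 (A_55_P1968743, chr3:135254550-135254609, - strand, build mm9) and the probe of Nfkbiz (A_55_P2039086, chr16:55817859-55817918, - strand, build mm9). They are shown in lower case throughout, since the whole probe binds.
Nfkb1, A_55_P1968743: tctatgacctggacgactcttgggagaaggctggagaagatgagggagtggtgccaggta
Nfkbiz, A_55_P2039086: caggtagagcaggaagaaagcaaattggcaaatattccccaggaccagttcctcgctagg

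The first question was how the treatment altered these genes in each tissue. In lung, Nfkbiz rose and Relb, Rela, Rel and Nfkb1 fell. In bone marrow, Nfkb1, Relb, Rela and Nfkb2 fell, and none of the 10 rose. The inhibitors Nfkbia, Nfkbie, Bcl3 and Tnfaip3 passed the test in neither tissue. Values are log2 ratios of treated over mock after background correction and loess within an array, with 3 arrays a tissue, so that a positive value means higher in treated cells. The dyes named in the labels set this direction, whereas the headings of the authors' deposited matrices name mock over treated. The test was limma's moderated test with Benjamini-Hochberg adjustment over all 22097 genes, and a gene passed at an adjusted p under 0.05.

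In lung 1 of the 10 genes passed as higher and 4 as lower, while 20.0% of all genes passed as higher and 14.0% as lower. In bone marrow 0 passed as higher, also at an unadjusted p under 0.05, and 4 as lower, against 7.25% and 7.14% of all genes. The median log2 ratio of the 10 genes was -0.27 in lung and -0.41 in bone marrow, beside 0.01 and 0.02 over all genes. The 5 subunit genes were below 0 on all 6 arrays, which makes 30 of 30 values. Without Rel, which was not well above background in bone marrow, it was 24 of 24. The 5 inhibitors and regulators had 15 values below 0 and 15 above. Of all genes with 6 values, 11.8% were below 0 on all 6 arrays.

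**Figure D1:**
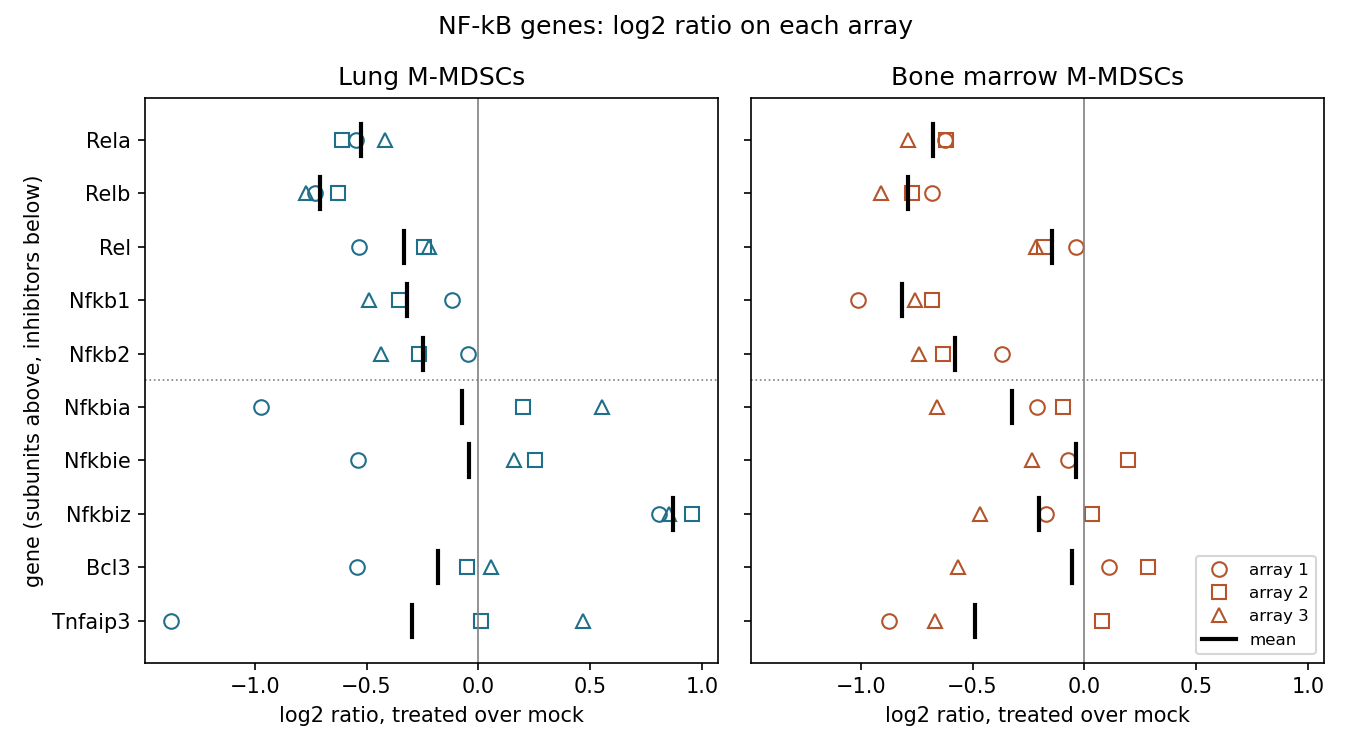
The log2 ratio of treated over mock for each of the 10 genes, with 1 symbol for each array and a black bar for the mean of 3 arrays, in lung (left) and bone marrow (right). All symbols of the 5 subunits lie left of 0 in both panels, Nfkbiz lies right of 0 on all 3 lung arrays, and Nfkbia and Tnfaip3 are spread widely in lung. Rel was not well above background in bone marrow.

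Relb encodes the subunit that works mainly with p52 in the slower branch of the pathway. Its log2 ratio was -0.73, -0.63 and -0.77 on lung arrays 1, 2 and 3, and -0.68, -0.77 and -0.91 on bone marrow arrays 1, 2 and 3. No array stood apart, and the ranges of the tissues overlap. In lung it averaged -0.71 ± 0.073 (SD, n = 3, limma adjusted p = 0.000351), which is 61.2% of the mock level. In bone marrow it averaged -0.79 ± 0.12 (SD, n = 3, limma adjusted p = 0.00153), or 58.0% of the mock level. The channel levels, on a log2 scale equalised between arrays, were 9.88, 9.78 and 9.71 in treated lung and 10.61, 10.41 and 10.47 in mock lung. Treated and mock lung did not overlap. In treated bone marrow the levels were 8.53, 8.65 and 7.94, and in mock bone marrow 9.21, 9.42 and 8.85. The third array was the lowest in both channels of the marrow. Another probe of Relb, which overlaps the first in position, averaged -0.60 ± 0.075 in lung and -0.56 ± 0.21 in bone marrow (SD, n = 3 each), and passed in both tissues when all 27695 kept probes were fitted (limma adjusted p = 0.00159 and 0.0077).

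Rela encodes p65, the subunit with the strong activation domain of the faster branch. It was -0.55, -0.61 and -0.42 on the lung arrays and -0.62, -0.62 and -0.79 on the bone marrow arrays. Every array of both tissues was below 0. The means were -0.53 ± 0.098 in lung (SD, n = 3, limma adjusted p = 0.00116) and -0.68 ± 0.097 in bone marrow (SD, n = 3, limma adjusted p = 0.00234), so that treated cells held 69.5% and 62.6% of the mock level. Channel levels in lung were 12.86, 12.76 and 12.76 in treated cells against 13.40, 13.37 and 13.17 in mock cells. In bone marrow they were 12.48, 12.44 and 12.42 in treated cells against 13.10, 13.05 and 13.21 in mock cells. Treated and mock levels of Rela overlapped in neither tissue.

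Rel encodes c-Rel, a subunit known for its part in lymphocytes and in IL-12 production by myeloid cells. On the lung arrays it was -0.53, -0.24 and -0.22, a mean of -0.33 ± 0.18 (SD, n = 3, limma adjusted p = 0.0157). Array 1 was the lowest, and without it the mean was -0.23 and no longer passed (adjusted p = 0.0603). Nor did Rel pass in lung with the processed signals of the scanner software, although the ratio was larger (-0.73, adjusted p = 0.0687). In bone marrow its probe was not well above background on any array in either channel, so no fold is given there. Its ratios on those arrays, -0.04, -0.18 and -0.22, compare signals near background.

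Nfkb1 encodes p105, the precursor of p50 and itself an inhibitor that holds other subunits. With the brighter of its probes the log2 ratio was -0.12, -0.35 and -0.49 on the lung arrays and -1.01, -0.68 and -0.76 on the bone marrow arrays. The ranges of the tissues did not overlap. The means were -0.32 ± 0.19 in lung (SD, n = 3, limma adjusted p = 0.0325) and -0.82 ± 0.17 in bone marrow (SD, n = 3, limma adjusted p = 0.00335). The lung call was lost without lung array 2 (adjusted p = 0.129) or lung array 3 (adjusted p = 0.168), while the ratio stayed below 0.

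The 2 probes of Nfkb1 gave opposite orders of the tissues in level. The dimmer probe, A_55_P1968738, lies further along the transcript, starting at base 4056 where the brighter probe starts at base 2747. Its log2 ratio was -0.34, -0.38 and -0.53 on the lung arrays, with a mean of -0.42 ± 0.096 (SD, n = 3, limma adjusted p = 0.00204 over all kept probes), and -0.21, -0.12 and -0.14 on the bone marrow arrays, with a mean of -0.16 ± 0.047 (SD, n = 3, adjusted p = 0.125). The mean fall was thus larger in bone marrow by the brighter probe and larger in lung by the dimmer one. The difference of the ratios between tissues passed for the brighter probe (limma adjusted p = 0.0421 over all kept probes) and did not for the dimmer one (0.0837). The difference between the probes was not tested. By the brighter probe treated lung was 10.3-fold lower than treated bone marrow and mock lung 14.6-fold lower than mock bone marrow (limma adjusted p = 1.93e-07 and 4.94e-07 over all kept probes). By the dimmer probe treated lung was 1.88-fold and mock lung 2.26-fold higher (limma adjusted p = 0.000125 and 3.49e-05). Both probes were well above background on all arrays, and which transcripts they report was not analysed here.

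**Figure D2:**
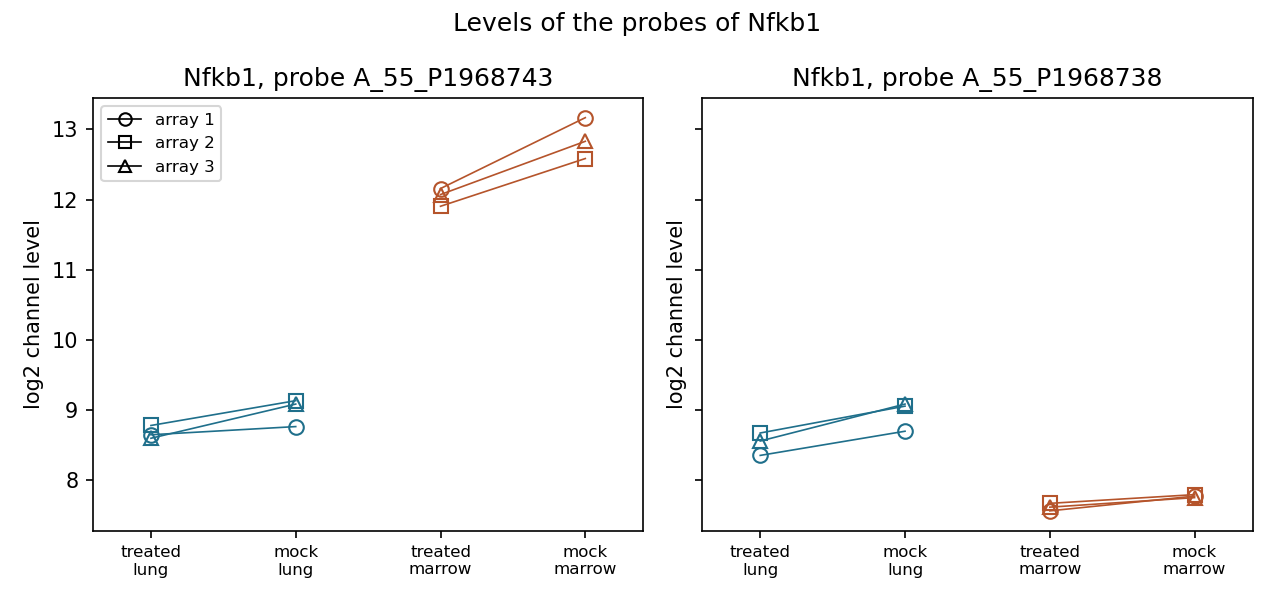
The log2 level of each Nfkb1 probe in treated and mock cells of lung and bone marrow, with lines that join the treated and mock channel of 1 array. The brighter probe (left) lies between 8.60 and 9.13 in lung and between 11.90 and 13.17 in bone marrow, whereas the dimmer probe (right) is higher in lung than in bone marrow.

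Nfkb2 encodes p100, the precursor of p52. Its log2 ratio was -0.05, -0.26 and -0.44 on the lung arrays and -0.37, -0.63 and -0.74 on the bone marrow arrays. All values were below 0, with array 1 nearest to 0 in each tissue. In bone marrow the mean was -0.58 ± 0.19 (SD, n = 3, limma adjusted p = 0.0114), and the call was lost without bone marrow array 2 (adjusted p = 0.0701) or bone marrow array 3 (adjusted p = 0.059). In lung the mean was -0.25 ± 0.20 and did not pass (SD, n = 3, limma adjusted p = 0.0858), but without lung array 1 it was -0.35 and did (adjusted p = 0.0431).

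The calls of the subunits also rested on how dye bias was removed. Loess removes a bias that changes with spot brightness, and median centring shifts a whole array by 1 value. When median centring replaced loess, the 5 subunits stayed below 0 in both tissues, but none passed in limma, and at an unadjusted p under 0.05 only 1 subunit did, in lung. The median log2 ratio of all genes was then 0.12 in lung and 0.20 in bone marrow. Relative to that median, Relb was -0.62 in lung and -0.64 in bone marrow, Rela -0.38 and -0.28, Nfkb1 -0.22 and -0.44, and Nfkb2 -0.16 and -0.39. Across all genes median centring left 964 calls in lung and 0 in bone marrow, where 3951 genes had an unadjusted p under 0.05.

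**Figure D3:**
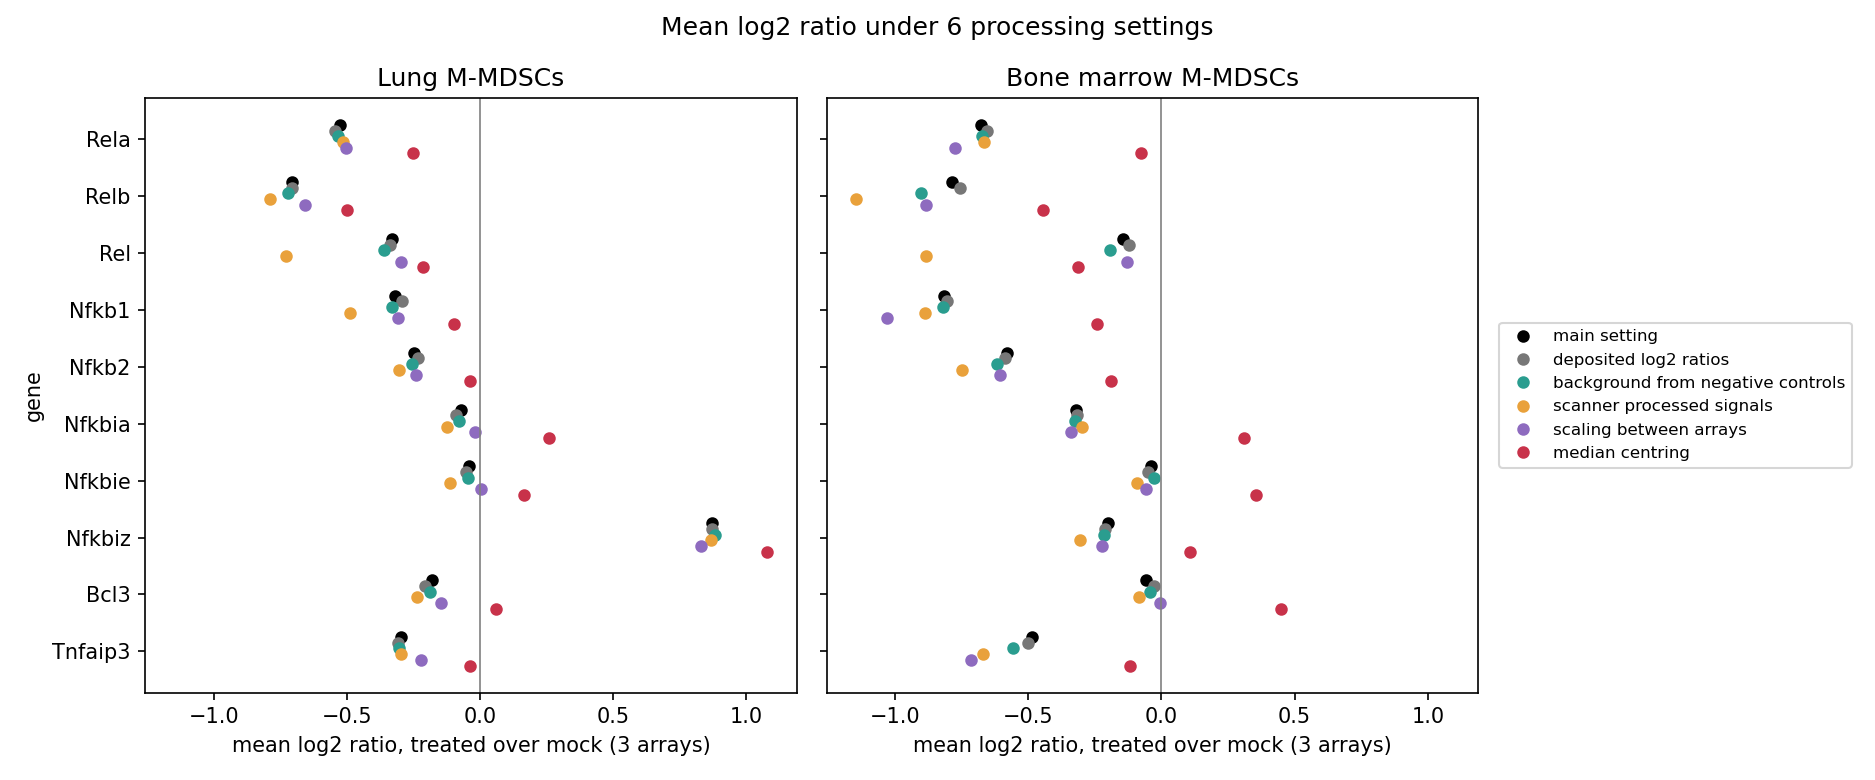
The mean log2 ratio of treated over mock of each gene (3 arrays) under 6 processing settings, 1 colour for each, in lung (left) and bone marrow (right). The 5 subunits stay left of 0 under all 6. Nfkbiz in lung stays right of 0, at 0.87 in the main setting and 1.08 with median centring. Nfkbia, Nfkbie and Bcl3 lie right of 0 in both tissues with median centring.

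Nfkbiz encodes IκBζ, a nuclear protein that helps NF-kB switch on secondary inflammatory genes such as Il6. In lung its log2 ratio was 0.80, 0.95 and 0.85, with a mean of 0.87 ± 0.076 (SD, n = 3, limma adjusted p = 0.000615), so that treated cells held 1.83 times the mock level. The channel levels were 10.59, 10.82 and 10.72 in treated lung and 9.79, 9.86 and 9.87 in mock lung. Treated and mock lung did not overlap, and all 3 arrays were higher. In bone marrow the ratio was -0.17, 0.03 and -0.47, and the mean of -0.20 ± 0.25 did not pass (SD, n = 3, limma adjusted p = 0.183, 95% interval -0.42 to 0.02). The rise in lung passed in all 15 alternative settings, with a log2 ratio between 0.83 and 1.08 and an adjusted p between 0.000522 and 0.0428. Not all of these settings alter its lung ratios. Leaving out a bone marrow array, dropping the filter on dim probes, averaging a gene's probes or fitting each tissue alone kept its lung mean. Taking the replicate number as a block kept it too.

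Markers of other cell types moved in lung beside Nfkbiz. In RNA of sorted cells, fewer cells of a type and less RNA per cell cannot be told apart. Over all genes 20.0% rose and 14.0% fell in lung. All 10 macrophage markers rose in treated lung (median log2 ratio 2.18), and their summed level was 97210 to 147500 in treated lung and 31660 to 38520 in mock lung. Of the lung epithelial markers 6 of 8 rose, with a sum of 60210 to 93020 in treated lung and 16100 to 30230 in mock lung. Of the endothelial markers 7 of 8 rose, with a sum of 14420 to 18350 against 6768 to 8979 in mock lung. The neutrophil markers rose in 6 of 9, with a sum of 75840 to 154100 in treated lung and 32520 to 63200 in mock lung. That count was 3, 2 and 8 without lung array 1, 2 or 3, and 0 in limma with scaling between arrays or median centring (7 and 8 at an unadjusted p under 0.05). Lung array 3 went the other way for Camp, at -0.77 where the others were 2.66 and 2.22, and for Ngp, at -0.29 where the others were 2.40 and 2.24. B cell markers went the other way: 7 of 9 fell and 2 rose, with a sum of 2829 to 3147 in treated lung and 5156 to 7675 in mock lung. T and NK cell markers fell in 4 of 10 (6, 2 and 2 without lung array 1, 2 or 3) and rose in 1, with a sum of 4243 to 5310 in treated lung and 5513 to 5798 in mock lung. Dendritic cell markers rose in 2 of 7 and fell in 2, with a sum of 37970 to 42140 against 24320 to 28780 in mock lung, and M-MDSC and monocyte markers rose in 3 of 9 and fell in 2, with a sum of 179300 to 200900 against 140600 to 172900 in mock lung. The part of these cells in the lung values of the NF-kB genes was not tested.

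In bone marrow the M-MDSC and monocyte markers fell in 3 of 9 (1, 2 and 1 without bone marrow array 1, 2 or 3) and rose in 1, with a summed level of 147900 to 176100 in treated and 149500 to 160800 in mock marrow. There 1 dendritic cell marker and 1 lung epithelial marker rose, and no other marker passed in limma. Over all genes 7.25% rose and 7.14% fell in bone marrow. The macrophage marker Mertk, the B cell marker Ms4a1 and the lung epithelial markers Sftpa1, Sftpb and Sftpc were not well above background on any marrow array. Other markers of the same lists were, among them Mrc1 and Cd68, Cd79b, and Krt18, on all 3 marrow arrays in both channels. The summed macrophage level was 3549 to 4874 in treated and 3919 to 4205 in mock marrow.

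Nfkbia encodes IκBα, the inhibitor that NF-kB restores first. Its log2 ratio was -0.97, 0.20 and 0.55 on the lung arrays and -0.21, -0.09 and -0.66 on the bone marrow arrays. In lung array 1 went against the others. The level in treated lung was 14.63, 14.60 and 14.72, a range of 0.12, whereas mock lung had 15.61, 14.40 and 14.16, a range of 1.44. The scatter of the lung ratio thus lay in the mock channel, in which array 1 held the highest level. The means were -0.07 ± 0.80 in lung (SD, n = 3, limma adjusted p = 0.856, 95% interval -0.68 to 0.53) and -0.32 ± 0.30 in bone marrow (SD, n = 3, limma adjusted p = 0.427, 95% interval -0.93 to 0.28). Each interval holds a fall as large as that of Rela in the same tissue.

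Tnfaip3 encodes A20, an enzyme that edits ubiquitin chains and shuts off signalling from TNF and toll-like receptors. It had the widest spread of the 10 genes in lung, with log2 ratios of -1.37, 0.01 and 0.47. Levels were 12.21, 12.77 and 12.96 in treated lung and 13.58, 12.76 and 12.49 in mock lung. Array 1 held both the lowest treated level and the highest mock level. In bone marrow the ratios were -0.88, 0.08 and -0.67. The means, -0.30 ± 0.96 in lung and -0.49 ± 0.50 in bone marrow (SD, n = 3 each), did not pass (limma adjusted p = 0.529 and 0.337).

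Nfkbie encodes IκBε, an inhibitor that acts later than IκBα. Its lung ratios were -0.54, 0.25 and 0.16. Treated lung held 10.71, 10.73 and 10.64, a range of 0.09, and mock lung 11.25, 10.48 and 10.48, a range of 0.77, so that array 1 again held the highest mock level. In bone marrow the ratios were -0.07, 0.19 and -0.24. The mean log2 ratio was -0.04 in both tissues and did not pass (SD 0.43 and 0.22, n = 3 each, limma adjusted p = 0.859 in lung and 0.892 in bone marrow).

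Bcl3 encodes an atypical nuclear IκB that binds dimers of p50 and p52. Its ratios were -0.54, -0.05 and 0.05 in lung and 0.11, 0.29 and -0.56 in bone marrow. The means of -0.18 ± 0.32 and -0.06 ± 0.45 did not pass (SD, n = 3 each, limma adjusted p = 0.463 in lung and 0.855 in bone marrow). Array 3 was the low one in bone marrow: its treated level was 10.45 where the other treated levels were 11.64 and 11.76, and its mock level was 11.01 where the others were 11.53 and 11.47. Bone marrow array 3 also held the lowest treated and mock levels of Nfkbia, Nfkbie, Nfkbiz, Relb and Tnfaip3.

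Fos, Jun, Egr1 and other immediate early genes, which respond to many stimuli within minutes and were added after the values had been seen, had a median log2 ratio over 10 genes of 0.05, -0.02 and -0.06 on the lung arrays and -0.48, -0.03 and -0.67 on the bone marrow arrays. Marrow arrays 1 and 3 were thus the low ones in the median. Single genes departed from it: Egr1 was 1.58, 1.52 and 1.38 on the lung arrays, and in bone marrow Atf3 was -1.99, -1.38 and -2.41, Fosb -1.37, -1.08 and -0.33 and Jun -0.32, -0.25 and -0.60. Their part in the values of the inhibitors was not tested.

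**Figure D4:**
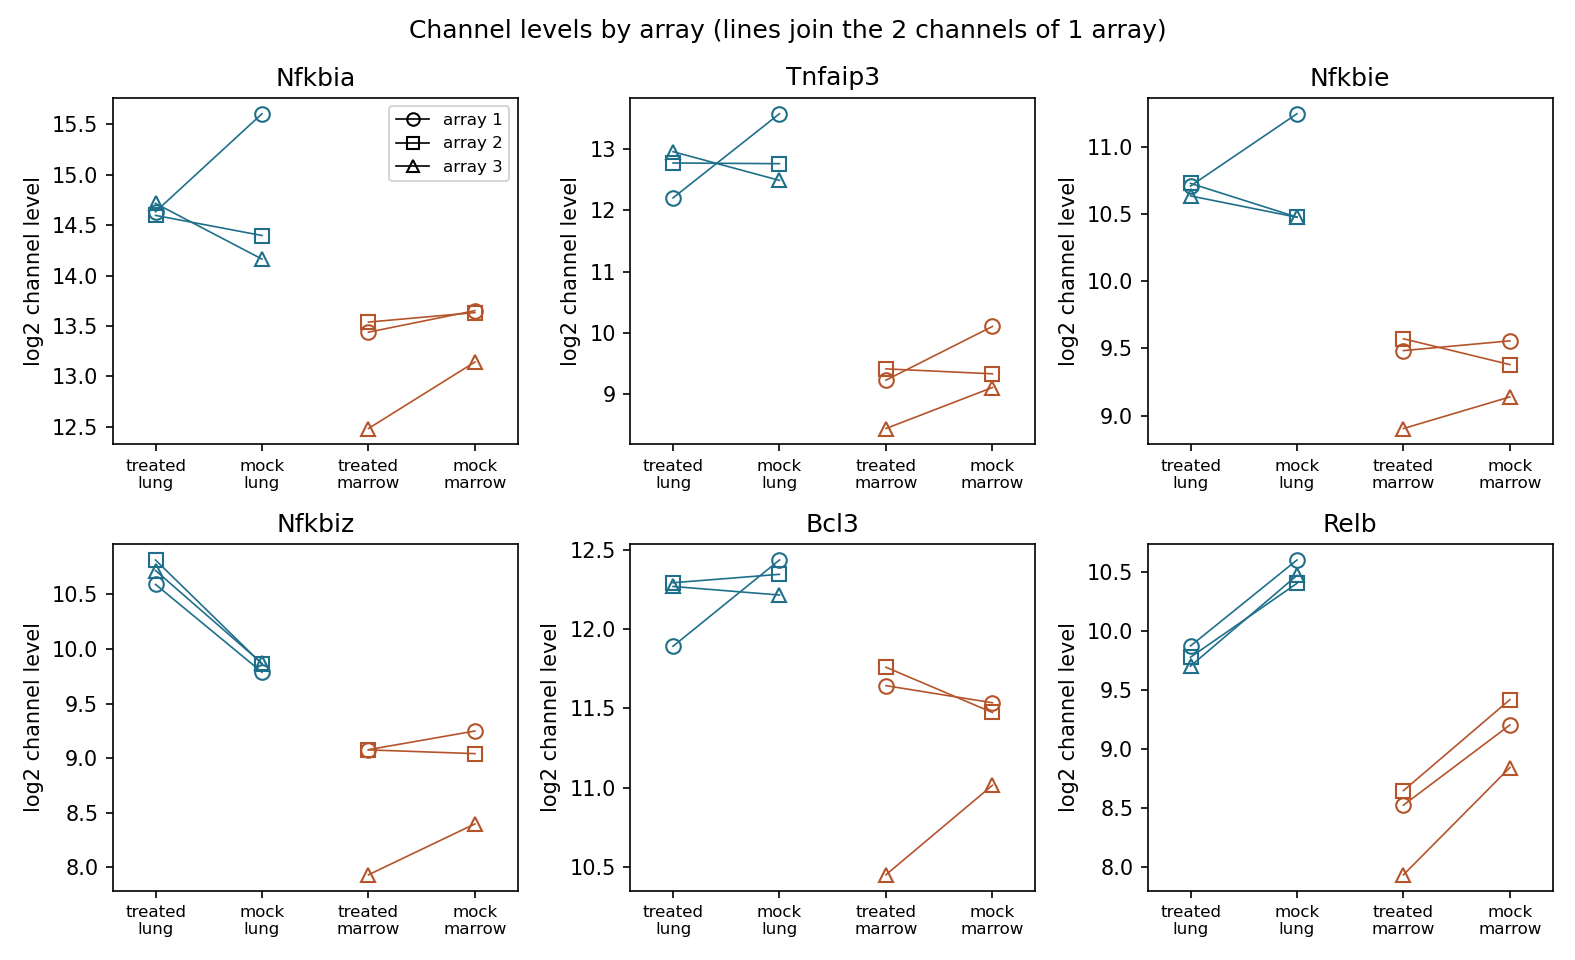
Log2 channel levels of 6 genes, with 1 symbol for each array, lines that join the treated and mock channel of 1 array, lung in blue and bone marrow in orange. In treated lung the levels of Nfkbia and Nfkbie are close together while mock lung of array 1 stands above the others, treated lung is above mock lung on all 3 arrays for Nfkbiz, and array 3 is the lowest of treated and of mock bone marrow in every panel.

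The next comparison asked whether the response differed between the tissues. The log2 ratio in lung minus that in bone marrow passed for 2 of the 10 genes, both higher, while 9.78% of all genes passed as higher and 5.46% as lower. Nfkbiz responded more in lung by 1.07 (95% interval 0.76 to 1.38, limma adjusted p = 0.00346), and all 3 lung ratios lay above all 3 marrow ratios. Median centring kept the size of this difference (0.97) but not the call (adjusted p = 0.309). For Nfkb1 the difference was 0.50 (95% interval 0.19 to 0.80, limma adjusted p = 0.0431), which depended on the probe, since the mean of both probes gave 0.12 (adjusted p = 0.454). Without lung array 1, lung array 2 or any 1 of the bone marrow arrays it no longer passed (adjusted p between 0.0775 and 0.106).

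For the other 8 genes the difference did not pass. The intervals were narrow for Relb (0.08, 95% interval -0.14 to 0.30) and Rela (0.15, -0.07 to 0.37). They were wide for Tnfaip3 (0.19, -0.89 to 1.27) and Nfkbia (0.25, -0.61 to 1.10). Nfkb2 differed by 0.33 (95% interval 0.01 to 0.65, limma adjusted p = 0.142).

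Levels were then compared between lung and bone marrow in treated cells and, separately, in mock cells. Most of the 10 genes were higher in lung in both. Among treated cells 9 of the 10 genes were higher in lung and 1 lower, where 62.4% of all genes passed, 28.4% as higher and 34.0% as lower. Among mock cells 8 were higher, 1 lower and 1 did not pass, where 66.0% of all genes passed, 29.6% as higher and 36.3% as lower. The lower one was Nfkb1 by its brighter probe, the direction of which turned with the dimmer probe. Mock Rela did not pass (log2 difference 0.20, limma adjusted p = 0.0792), but did without lung array 3 (0.27, adjusted p = 0.0369). Rel was among the genes counted as higher in lung in both treated and mock cells. Its probe passed the filter on dim probes through the lung arrays only, so Rel adds no support to these counts.

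Tnfaip3 differed most among those higher in lung, by a log2 difference of 3.62 ± 0.28 in treated cells (SE, n = 3 a tissue, limma adjusted p = 2.21e-05) and 3.42 ± 0.32 in mock cells (SE, n = 3 a tissue, limma adjusted p = 4.92e-05). Its treated level was 12.21 to 12.96 in lung and 8.44 to 9.42 in bone marrow, and its mock level 12.49 to 13.58 in lung and 9.11 to 10.11 in bone marrow. The tissues did not overlap. Nfkbiz was higher in lung by 2.02 in treated cells and 0.94 in mock cells (limma adjusted p = 0.000577 and 0.00326). Relb differed by 1.42 and 1.34 in treated and mock cells, Nfkbia by 1.50 and 1.25, Nfkbie by 1.37 and 1.38, and Bcl3 by 0.87 and 0.99. The treated difference of Bcl3 was lost in 7 of 11 alternative settings, among them those without bone marrow array 1 or any 1 of the lung arrays, with an adjusted p up to 0.125, and that of mock Nfkbia without marrow array 3 (adjusted p = 0.0608). Rel, not well above background in bone marrow, was at least 1.27-fold higher in treated lung and at least 1.45-fold higher in mock lung (limma adjusted p = 0.0173 and 0.000622). Each bound is the lung mean over the bone marrow signal. The treated call was lost without lung array 2 or lung array 3 (adjusted p = 0.0677 and 0.0687). Other summed levels also differed between the tissues. Macrophage markers were 97210 to 147500 in treated lung and 3549 to 4874 in treated bone marrow, and 31660 to 38520 in mock lung and 3919 to 4205 in mock bone marrow. Lung epithelial markers were 60210 to 93020 in treated lung and 1256 to 1731 in treated bone marrow, and 16100 to 30230 in mock lung and 887 to 956.4 in mock bone marrow. Of these 8 markers, 3 were well above background on each treated marrow array, and 2, 4 and 1 on mock marrow arrays 1, 2 and 3. Their marrow sums thus include signals near background. Neutrophil markers ran the other way, with 75840 to 154100 in treated lung and 371900 to 423900 in treated bone marrow, and 32520 to 63200 in mock lung and 377200 to 385900 in mock bone marrow. The 10 immediate early genes were 119600 to 165200 in treated lung and 9817 to 41110 in treated bone marrow, and 143000 to 160900 in mock lung and 24280 to 60420 in mock bone marrow. The part of these cells and genes in the tissue differences was not tested.

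The rest of the pathway was described through 4 lists. In lung the kinases and adaptors that passed mostly fell, and the textbook NF-kB targets that passed mostly rose. Of 29 kinases and adaptors that activate the pathway, 13 fell and 1 rose in lung, where 14.0% of all genes fell and 20.0% rose. In bone marrow 9 fell, against 7.14% of all genes, while 0 rose, also at an unadjusted p under 0.05. The count that fell was 9, 9 and 7 in lung without lung array 1, 2 or 3, and 2, 4 and 3 in bone marrow without bone marrow array 1, 2 or 3, and 2 there without lung array 2. Their median log2 ratio was -0.19 in lung and -0.21 in bone marrow. With median centring it was 0.04 in lung and 0.21 in bone marrow, beside 0.12 and 0.20 over all genes, and no gene of the list passed in limma (1 in lung and 2 in bone marrow as higher at an unadjusted p under 0.05). In lung the genes with the smallest p were Chuk, the IKKα kinase of the complex (-0.52 ± 0.12, adjusted p = 0.0016), Irak4 and Irak1, kinases below IL-1 and toll-like receptors (-0.35 ± 0.073 and -0.38 ± 0.016, adjusted p = 0.0045 and 0.00661), Map3k7, the TAK1 kinase (-0.33 ± 0.042, adjusted p = 0.00582), and Card9, an adaptor of fungal sensing (-0.56 ± 0.15, adjusted p = 0.00831). In bone marrow they were Irak4 (-0.48 ± 0.083, adjusted p = 0.00497), Traf5, an adaptor of TNF receptors (-0.50 ± 0.11, adjusted p = 0.0102), and Map3k7 (-0.28 ± 0.10, adjusted p = 0.0274). These values are means ± SD of 3 arrays with limma's adjusted p, as are those of the other lists.

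Chuk was -0.66, -0.44 and -0.45 on the lung arrays, and Irak4 was -0.29, -0.43 and -0.33. All of these were below 0. The difference between the tissues passed for none of the 29 in limma, where 3 were higher and 3 lower at an unadjusted p under 0.05. Over all genes 15.2% passed in this difference.

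Of the 40 textbook targets, 39 were tested, and Csf3 was not among the genes tested. In lung 15 rose and 1 fell, where 20.0% of all genes rose and 14.0% fell. The median log2 ratio of the targets was 0.36. The count that rose was 24 without lung array 1 (median 0.64), 9 without lung array 2 and 10 without lung array 3 (median 0.17). In bone marrow 4 rose and 1 fell, where 7.25% of all genes rose and 7.14% fell. The median of the targets there was 0.01. The count that rose there was 1, 1 and 2 without bone marrow array 1, 2 or 3, and 1 without lung array 2. In the difference between tissues 10 were higher and 2 lower in lung (17 higher without lung array 1). Over all genes 9.78% passed as higher and 5.46% as lower in that difference. With median centring 9 passed as higher in lung and none as lower, also at an unadjusted p under 0.05. Of all genes 964 then passed in lung in either direction. The smallest p in lung belonged to Cd83, a surface protein of activated antigen-presenting cells, which was 1.85, 1.60 and 1.76 on the 3 arrays and averaged 1.74 ± 0.12 (adjusted p = 1.47e-05). In bone marrow Cd83 fell by 0.31 ± 0.055 (adjusted p = 0.0259), so that it moved in opposite directions in the tissues (adjusted p of the difference 9.49e-05). The marrow fall of Cd83 did not pass without bone marrow array 1 or with median centring. None of the 39 targets then passed as lower there in limma (2 at an unadjusted p under 0.05 in each setting).

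Bcl2l1, which encodes the survival protein Bcl-xL, was 1.20, 1.28 and 1.39 on the lung arrays and averaged 1.29 ± 0.097 (adjusted p = 3.72e-05). The cytokine gene Il1a averaged 1.42 ± 0.19 (adjusted p = 6.04e-05), the urokinase gene Plau 1.25 ± 0.16 (adjusted p = 7.35e-05) and the monocyte chemokine gene Ccl2 2.17 ± 0.44 (adjusted p = 0.000238) in lung. In bone marrow Bcl2l1, Il1a and Ccl2 did not pass (0.06, -0.04 and 0.29), and Plau rose by 0.32 ± 0.075 (adjusted p = 0.0314). The T cell chemokine gene Ccl5 went against this pattern. It was -0.85, -1.03 and -0.88 on the lung arrays and 0.49, 0.81 and 1.19 on the bone marrow arrays, with no overlap (mean -0.92 in lung, adjusted p = 0.00129, and 0.83 in bone marrow, adjusted p = 0.00696). The macrophage markers given above rose in the same lung RNA as these targets, and their part in the values was not tested.

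Of 22 receptors that feed the pathway, 5 rose and 5 fell in lung, where 20.0% of all genes rose and 14.0% fell, and 1 rose and 4 fell in bone marrow, where 7.25% rose and 7.14% fell. In lung the counts were 4 and 3 without lung array 1, 3 and 3 without lung array 2, and 3 and 4 without lung array 3. In bone marrow 2, 3 and 1 fell without bone marrow array 1, 2 or 3, and 2 fell without lung array 2. The risers in lung included Tnfrsf11a, which encodes RANK (0.57 ± 0.048, adjusted p = 0.000608), Tlr5, the flagellin receptor (0.70 ± 0.23, adjusted p = 0.00161), and Tlr4, the lipopolysaccharide receptor, which was 0.87, 0.47 and 0.61 on the 3 arrays (mean 0.65 ± 0.20, adjusted p = 0.00207). Among those that fell in lung were Tnfrsf13c, the BAFF receptor of B cells (-1.28 ± 0.44, adjusted p = 0.000714), and Cd40, a receptor of B cells and antigen-presenting cells (-0.96 ± 0.25, adjusted p = 0.00188). Cd40 also fell in bone marrow (-0.74 ± 0.35, adjusted p = 0.0161), as did the endosomal receptor Tlr8 (-0.51 ± 0.17, adjusted p = 0.00832) and Tlr6, a partner of Tlr2 (-0.60 ± 0.33, adjusted p = 0.0318). With median centring 1 receptor rose and 1 fell in lung, and none passed in bone marrow (1 lower at an unadjusted p under 0.05). B cell markers, of which 7 of 9 fell, moved beside Tnfrsf13c and Cd40 in lung, and their part was not tested.

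Of 20 inhibitors and brakes outside the 10 genes, 4 rose and 3 fell in lung, and 1 rose and 1 fell in bone marrow. These counts are near the share of all genes that rose and fell in lung (20.0% and 14.0%) and in bone marrow (7.25% and 7.14%). Tnip2 and Tnip3, partners of A20, rose in lung by 0.57 ± 0.054 and 0.47 ± 0.069 (adjusted p = 0.000439 and 0.00114). Pdlim2, which promotes the degradation of nuclear p65, rose there by 0.58 ± 0.21 (adjusted p = 0.00496). Irak3, which blocks IRAK kinases in macrophages, fell in lung (-0.61 ± 0.12, adjusted p = 0.0017) and in bone marrow (-0.40 ± 0.19, adjusted p = 0.0251), where it no longer passed without any 1 of the bone marrow arrays. Otulin, which removes linear ubiquitin chains, fell in lung (-0.52 ± 0.14, adjusted p = 0.00247). Sigirr, an inhibitory member of the IL-1 receptor family, was 0.57, 0.68 and 0.64 on the bone marrow arrays (mean 0.63 ± 0.054, adjusted p = 0.00567) and averaged 0.03 ± 0.22 in lung (adjusted p = 0.831). With median centring 1 of the 20 passed in lung, as higher, and none in bone marrow (3 higher at an unadjusted p under 0.05).

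Genes with the most similar pattern were found by the root mean square difference of the log2 ratios over the 6 arrays, among 16466 genes with a symbol. For Relb they were Ogfr (0.05), Herc4 (0.08) and Ccdc28b (0.09). For Nfkbiz they were Msr1 (0.07), a scavenger receptor gene of macrophages, Ctsb (0.14), a lysosomal protease gene, and Btbd9 (0.14). For Rela they were Fars2 (0.09), Ppt2 (0.10) and Rnpep (0.11), and for Rel 4921524J17Rik (0.05), Gm7467 (0.06) and Arhgap11a (0.06). The Rel probe was not well above background on the bone marrow arrays, so for it those 3 arrays compare signals near background. Within the 10 genes, Rela and Relb were 0.18 apart. These values describe 6 arrays and carry no test.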

How the data were processed

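RNA of sorted M-MDSCs was measured on 6 two-colour arrays, 3 of lung and 3 of bone marrow. Each deposited scanner file holds intensity values of every spot, both raw and processed by Agilent Feature Extraction 10.7.3.1, and places the probes on build mm9, per the file headers. For each tissue the authors deposited a matrix of log2 ratios made with limma, per the labels, whose settings are not given in the sources used here. These log2 ratios correlated at 0.986 to 0.997 with Cy5 over Cy3 of the same array, with medians between -0.01 and 0.01, so they were read as treated over mock.

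Here the mean signals and median local backgrounds were corrected with limma 3.58.1 (R 4.3.3, statmod 1.5.0) by normexp (offset 50). The corrected signals were then normalised by loess in every array, in which control spots had weight 0. Spots marked as outliers took part in the loess and were dropped after it. The remaining spots of 1 probe were averaged. The filter kept 27695 of 39429 probes, those well above background on 2 or more arrays of any tissue and channel, and the brightest probe stood for each gene. Symbols were updated by RefSeq accession for 26581 probes, by symbol for 2597 and by synonym for 492, while 9759 kept the name in the file. A limma model with a mean for each tissue was fitted to the log2 ratios and moderated by empirical Bayes (residual degrees of freedom 4, prior 3.52), two-sided, with Benjamini-Hochberg adjustment over 22097 genes. The spread of a gene was shared by the tissues. Channel levels were equalised between arrays (Aquantile) and lung was compared with bone marrow within each dye. After correction the median Cy5 signal of the 153 negative control spots was 240.3 on bone marrow array 1, 87 on lung array 2 and 13.32 to 15.97 on the others. The fits were tested on simulated data with known changes. Those data held independent noise and no dye bias, so they do not test the normalisation.

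The 10 genes and all lists were chosen with earlier results of these data known. The text names all 10 genes with every probe; from each pathway list up to 5 genes with the smallest p in lung and up to 3 in bone marrow among those that passed; and, for 4 of the 10 genes by smallest p in lung, the 3 genes of most similar pattern. Motifs were searched in RefSeq promoter windows of build GRCm38.p6, and no coordinate was converted between builds. Alternatives were other background corrections, median centring, scaling, the authors' deposited ratios, no filter, the mean of a gene's probes, the replicate number as a block, a fit of each tissue alone, quantile normalization and leaving out each array.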

Additional observations from a re-analysis of the deposited data

Results flagged for a closer look

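The response to treatment differed between lung and bone marrow, by the test of the tissue difference itself, for 2 of the 10 genes. Nfkbiz responded more in lung by 1.07 on the log2 scale (limma adjusted p = 0.00346), with a ratio above 0 on 3 of 3 lung arrays and on 1 of 3 bone marrow arrays. By its brighter probe Nfkb1 fell less in lung by 0.50 (limma adjusted p = 0.0431), with ratios below 0 on all 6 arrays. By its dimmer probe the order was the opposite, with a mean of -0.42 in lung and -0.16 in bone marrow. That difference did not pass (limma adjusted p = 0.0837 over all kept probes). The difference of Nfkb1 passed in 4 of 14 alternatives and that of Nfkbiz in 13 of 14. Tissue and slide cannot be told apart in either.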

How the results depend on the processing

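Among the 10 genes no call changed direction in the alternatives listed under the processing. The order of the tissues in Nfkb1, both in level and in mean log2 ratio, turned with its dimmer probe alone. Nfkbiz in lung passed in all 15 alternatives, and Rela and Relb passed in both tissues in all but median centring (Relb -0.50 in lung, adjusted p = 0.224, and -0.44 in bone marrow, 0.28; Rela -0.25, 0.729, and -0.08, 0.866). With median centring 1 of the 10 genes passed in lung, 0 in bone marrow and 0 in the tissue difference (limma; at an unadjusted p under 0.05, 2 in lung, 0 in bone marrow and 1 in the difference). The tissue difference passed for 1 gene with processed signals, scaling between arrays, the mean of a gene's probes and the replicate block. Leaving out 1 array gave 4 to 5 genes in lung, 3 to 4 in bone marrow, 1 to 2 in the difference, and 8 to 10 for each comparison of tissue levels. Nfkb1 in lung was lost in 6 of 15 alternatives, among them scaling (adjusted p = 0.423) and a separate fit of each tissue (0.0591). Rel in bone marrow passed only with processed signals (-0.88, adjusted p = 0.0397), where its probe was not well above background. Over all genes, calls in bone marrow numbered 3180, against 6464 with processed signals, 5503 with the background from negative control spots, 0 with median centring, 1573, 995 and 1199 without bone marrow array 1, 2 or 3, and 1918 without lung array 2. In lung there were 7510, against 964 with median centring. For the tissue difference there were 3368, against 33 with median centring and 1968, 1504 and 2239 without bone marrow array 1, 2 or 3. The causes were not tested. Arrays with the same replicate number in the tissues were not clearly paired: their deviations correlated at 0, 0.116 and 0.047. The replicate block moved Nfkb1 in lung (adjusted p = 0.0686) and its tissue difference (0.084) over the threshold, and Nfkb2 in lung under it (0.0305). The dimness of Rel in bone marrow limits what can be said of it there.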
